A study of Mus musculus with 12 samples.

Results

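The genes described here are 10 genes of the ATF4 branch of the stress response, serine synthesis and the mitochondrial folate pathway: Atf4, Atf5, Ddit3, Trib3, Chac1, Asns, Phgdh, Psat1, Shmt2 and Mthfd2. They were chosen by name, with earlier results of these data known, and all 10 were found among the 38924 genes of the count table. They were followed in RNA sequencing libraries of interscapular brown fat, the heat-producing fat depot between the shoulder blades, from 12 wild type mice of the C57BL/6J strain. The mice lived from 10 to 14 weeks of age at 1 of 3 ambient temperatures, with 4 mice at each: 30 °C, labelled thermoneutral, 22 °C, labelled room temperature, and 6 °C, labelled severe cold. No group carried a transgene or an agent according to the labels, the sex of the mice is not given there, and the depot was sequenced whole, with all its cell types.

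ATF4 is a transcription factor whose messenger RNA is translated more efficiently when the initiation factor eIF2 is phosphorylated by one of its kinases, which respond to unfolded protein, amino acid shortage, double-stranded RNA or mitochondrial and haem stress. It is known to raise genes of amino acid supply, among them Asns and the serine synthesis genes, and the factors DDIT3 and ATF5. In the serine route, PHGDH and PSAT1 lead from a glycolytic intermediate to phosphoserine, which PSPH converts to serine. SHMT2 then passes a carbon of serine to folate inside mitochondria and MTHFD2 oxidises that folate unit further. As ATF4 is controlled largely at translation, levels of Atf4 messenger RNA are not levels of its protein, which was not measured.

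The libraries held 18290162 to 32513051 counts each, apart from 22 °C mouse 3 with 86438386. Its library carries the code 8846, whereas the other 11 are coded 7509 to 7520. Of the 4 columns at 30 °C, 2 have a number found in none of the 30 °C titles, and only the letter in the column name places them there. They are called mice A and B. For the 10 genes, calls that change without mice A and B, or without 22 °C mouse 3, are given both ways below. None of the 11 brown adipocyte markers had 0 counts in any of the 12 libraries. The same held for the markers of other cells below, so it does not tell the depot apart. The mean level of the brown adipocyte markers was 7.51 to 8.04 log2 CPM at 30 °C, 8.59 to 8.93 at 22 °C and 9.09 to 9.43 at 6 °C. Against 30 °C, 7 of the 11 were higher at 22 °C, and 7 were higher and 1, Adipoq, lower at 6 °C. The shares of higher genes over all tested genes were 21.8% and 25.3%. From 22 °C to 6 °C, Elovl3, Ppargc1a and Ucp1 rose and Adipoq, Cidea and Cox8b fell, beside 16.9% higher and 17.4% lower. Without mice A and B, 5 were higher at 22 °C, and 5 higher and 1 lower at 6 °C. Markers of other cells moved with temperature as well. The summed level of 10 macrophage markers was 479 to 1599 CPM at 30 °C, 126 to 183 CPM at 22 °C and 213 to 451 CPM at 6 °C, and that of 13 proliferation markers was 62.6 to 104 CPM, 25.8 to 30.5 CPM and 40.8 to 60.1 CPM. The summed fibroblast markers were 2233 to 4171 CPM at 30 °C, 912 to 1300 CPM at 22 °C and 756 to 932 CPM at 6 °C, with 8 of 10 genes lower in each colder group. Endothelial markers went from 1322 to 1586 CPM at 30 °C to 859 to 1008 CPM at 22 °C and 910 to 1016 CPM at 6 °C, with 7 and then 6 of 9 genes lower. T and natural killer cell markers went from 10.1 to 18.2 CPM at 30 °C to 2.74 to 4.19 CPM and 1.63 to 3.81 CPM, with all 8 tested genes lower in both. Of all tested genes, 22.8% were lower at 22 °C and 31.5% at 6 °C. Without mice A and B, 6 fibroblast genes were lower at 22 °C and 6 at 6 °C. The endothelial genes that were lower then numbered 7 and 5, and the T and natural killer cell genes 7 and 8. No gene of these lists had 0 counts in any library. Skeletal muscle markers ranged from a summed 8.03 CPM in 6 °C mouse 3 to 3848 CPM in 30 °C mouse 1. In 30 °C mouse 1 their mean was 7.91 log2 CPM, above the 7.51 of the brown adipocyte markers.

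The short promoter stretches below are shown because ATF4 is known to bind DNA as a partner of C/EBP factors at a composite element. RefSeq (GRCm38.p6) gave 12 promoters for the 10 genes, each from 250 bases before to 50 bases after a start site. The letters TGATGNAA, the core of that element, were searched on both strands. They occurred in 3.97% of 32851 mouse promoters and in 3 of these 12, from 3 of the 10 genes. A looser form, TGNNGCAAT, was added after the sequences had been seen and overlaps the first at TGATGCAAT. It occurred in 2.12% of promoters and in 3 of these 12, again from 3 of the 10 genes. At least 1 of the forms stood in 5.8% of promoters and in 4 of these 12, 1 each from Trib3, Asns, Psat1 and Chac1. Capitals mark the match, positions give its first base counted from the start site, each stretch is read 5′ to 3′ on the strand of the gene, and a match is a description of letters, not a shown binding site.
Trib3, chr2:152344075-152344103, minus strand, position -33: gggtcacagaTGGTGCAATcccgggccgc
Trib3, chr2:152344029-152344056, minus strand, position 15, reverse orientation: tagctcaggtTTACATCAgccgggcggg
Asns, chr6:7693215-7693242, minus strand, position -23: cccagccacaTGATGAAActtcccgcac
Psat1, chr19:15925177-15925205, minus strand, position -136: cgcgggtggcTGGTGCAATcccctgctct
Chac1, chr2:119351039-119351066, plus strand, position -193, reverse orientation: ttccctgccgTTGCATCActcctgccag
Chac1, chr2:119350992-119351010, plus strand, position -250, at the edge of the window: TGACGCAATctgactcgcc
The 6 other genes, Atf4, Atf5, Ddit3, Phgdh, Shmt2 and Mthfd2, held neither form in these windows. The cyclic AMP response element TGACGTCA occurred in 1.79% of promoters, and no match to its letters was found in the windows of the 10 genes. The whole 250 bases before the start are given for Asns, whose level was highest at 22 °C, and for Phgdh, whose level fell furthest in the cold, as a pair with and without a match.
Asns, chr6:7693210-7693459, minus strand: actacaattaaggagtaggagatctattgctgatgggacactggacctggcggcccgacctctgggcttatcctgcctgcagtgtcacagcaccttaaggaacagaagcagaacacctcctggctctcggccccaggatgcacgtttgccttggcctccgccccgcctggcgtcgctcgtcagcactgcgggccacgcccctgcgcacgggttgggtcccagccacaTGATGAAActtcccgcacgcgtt
Phgdh, chr3:98339970-98340219, minus strand: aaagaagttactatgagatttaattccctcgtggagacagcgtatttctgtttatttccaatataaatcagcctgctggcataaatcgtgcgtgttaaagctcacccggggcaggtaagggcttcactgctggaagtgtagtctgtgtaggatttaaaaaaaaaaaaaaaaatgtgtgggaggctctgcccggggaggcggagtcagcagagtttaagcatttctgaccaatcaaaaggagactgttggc

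The 10 genes did not move as a block. Levels below are counts per 1000000 library counts after TMM scaling (CPM), log2 fold changes carry their standard error (SE), and adjusted p-values were computed by edgeR's quasi-likelihood test and the Benjamini-Hochberg method over all 14870 tested genes, with a gene said to rise or fall at an adjusted p under 0.05. All 10 genes passed the filter on low counts. Between 30 °C and 6 °C, Atf5, Asns and Mthfd2 rose, and Ddit3, Phgdh and Shmt2 fell. Those 6 of 10 stand beside a background of 56.8% of all tested genes, 25.3% higher and 31.5% lower. Between 30 °C and 22 °C, Atf5 and Asns rose and Atf4, Ddit3, Phgdh, Shmt2 and Mthfd2 fell, against a background of 44.6%, of which 21.8% were higher and 22.8% lower. Between 22 °C and 6 °C, Atf4, Atf5 and Mthfd2 rose and Asns and Phgdh fell, against 34.2%, of which 16.9% were higher and 17.4% lower. The 30 °C and 6 °C mice did not overlap for 7 of the 10 genes, beside 51.5% of all tested genes. A test over any difference among the temperatures called 7 of the 10, with a background of 65.7%, and a test of whether the step from 22 °C to 6 °C differed from the step from 30 °C to 22 °C called 4, with a background of 29.3%. The median log2 fold change of the 10 was 0.06, -0.28 and -0.01 in these comparisons, beside -0.11, -0.02 and -0.03 over all tested genes. The comparisons share groups, so they are not independent of each other. In a whole depot, fewer cells of a type and less RNA per cell cannot be told apart.

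**Figure D1:**
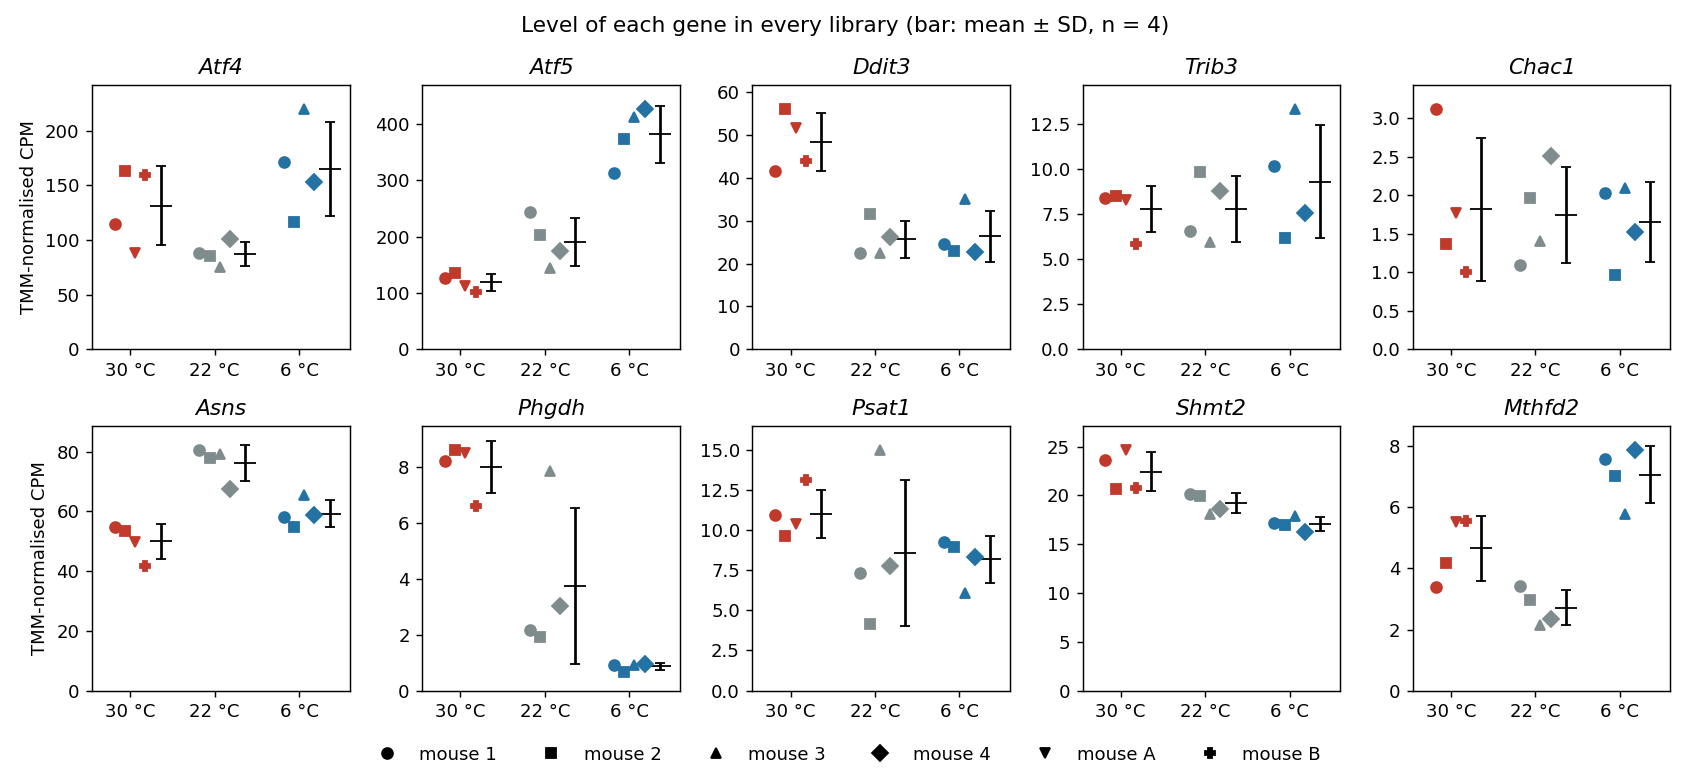
TMM-normalised CPM of each of the 10 genes (y axis, from 0) in every library, by temperature (x axis), with marker shapes for mice and bars for the mean ± SD of 4 mice. Atf5 climbs at each step, Phgdh ends at 0.669 to 0.944 CPM at 6 °C, Mthfd2 and Atf4 are lowest on average at 22 °C and Asns is highest there.

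Atf4 (chromosome 15, 80255184 to 80257541) encodes the central factor of the branch. Its level was 115, 163, 88.3 and 159 CPM at 30 °C (mice 1, 2, A and B), 88.0, 85.0, 75.1 and 101 CPM at 22 °C (mice 1 to 4), and 172, 116, 220 and 153 CPM at 6 °C (mice 1 to 4). Every mouse at 6 °C lay above every mouse at 22 °C, while the 30 °C mice spread across both. Atf4 rose by 0.92 on the log2 scale from 22 °C to 6 °C (SE 0.22, adjusted p = 0.00784). It stood at -0.59 at 22 °C against 30 °C (SE 0.22, adjusted p = 0.0448), a call that was lost in 13 of 25 alternative analyses, among them the one without both mice A and B (-0.67, adjusted p = 0.0507) and the fits lacking 30 °C mouse 2 or B, 22 °C mouse 1, 2 or 3, or 6 °C mouse 1 or 4 (-0.59 to -0.47, adjusted p = 0.0576 to 0.129). Between 30 °C and 6 °C the difference of 0.33 (SE 0.22, adjusted p = 0.213) did not pass. The step to severe cold exceeded the step to mild cold by 1.51 (SE 0.39, adjusted p = 0.0134).

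Atf5 (chromosome 7, 44812256 to 44816658) encodes a relative of ATF4 that is tied to the mitochondrial unfolded protein response and is also translated under eIF2 control. It was the only one of the 10 to rise at both steps. Its level was 127, 136, 112 and 102 CPM at 30 °C, 243, 202, 144 and 174 CPM at 22 °C and 313, 373, 412 and 426 CPM at 6 °C, with no overlap between any of the groups. Group means per kilobase of exon were 59.7 ± 7.60, 95.7 ± 21.3 and 191 ± 25.4 CPM (SD, n = 4). On that per-kilobase scale Atf5 was close to Atf4 at 30 °C (55.7 ± 15.3) and above it at 6 °C (70.01 ± 18.3 for Atf4). The log2 fold change was 1.68 at 6 °C against 30 °C (SE 0.16, 3.20-fold, adjusted p = 2.7e-06), 0.68 at 22 °C against 30 °C (SE 0.15, adjusted p = 0.00307) and 1.00 from 22 °C to 6 °C (SE 0.15, adjusted p = 4.7e-04). Without mice A and B the rise to 22 °C was 0.54 (adjusted p = 0.0539). The steps did not differ by the test (0.32, adjusted p = 0.396). Exons of Il4i1 and Nup62 on the other strand cover 4.11% of the Atf5 exons, and reads of both strands may be counted together.

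Ddit3 (chromosome 10, 127290774 to 127296288) encodes CHOP, a C/EBP-family factor of prolonged endoplasmic reticulum stress. It was low in the cold at both temperatures. Its level was 41.6, 56.0, 51.6 and 43.9 CPM at 30 °C, 22.4, 31.4, 22.4 and 26.2 CPM at 22 °C and 24.5, 23.0, 35.1 and 22.7 CPM at 6 °C. All 8 mice of the colder groups lay below all 4 mice at 30 °C. Ddit3 fell by 0.92 from 30 °C to 22 °C (SE 0.16, adjusted p = 5.8e-04) and by 0.87 from 30 °C to 6 °C (SE 0.16, adjusted p = 5.0e-04). The value from 22 °C to 6 °C was 0.04 (SE 0.16, adjusted p = 0.851). The difference of the steps, 0.96 (adjusted p = 0.0211), was lost without 22 °C mouse 1 (0.85, adjusted p = 0.0685) and without 22 °C mouse 3 (0.87, adjusted p = 0.0595). A second entry named Ddit3 on the same strand shares 6.13% of its exons, and genes on the other strand overlap 4.73%. The fibroblast, endothelial and T cell markers above were lower in both colder groups too, as were Phgdh and Shmt2 below, and their part in these results was not tested.

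Trib3 (chromosome 2, 152337422 to 152344032) encodes a pseudokinase that restrains ATF4 and DDIT3. Its level was 8.40, 8.48, 8.27 and 5.86 CPM at 30 °C, 6.53, 9.84, 5.95 and 8.75 CPM at 22 °C and 10.2, 6.15, 13.3 and 7.56 CPM at 6 °C, with every pair of groups overlapping. Its log2 fold changes were 0.26 at 6 °C against 30 °C (95% interval -0.20 to 0.72, adjusted p = 0.353), -0.01 at 22 °C against 30 °C (-0.47 to 0.46, adjusted p = 0.986) and 0.27 from 22 °C to 6 °C (-0.19 to 0.73, adjusted p = 0.401). Changes beyond these bounds lie outside the intervals, and changes within them remain possible.

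Chac1 (chromosome 2, 119351229 to 119354381) encodes an enzyme that breaks down glutathione. Its level was 3.12, 1.37, 1.77 and 1.01 CPM at 30 °C, 1.09, 1.97, 1.40 and 2.51 CPM at 22 °C and 2.03, 0.970, 2.09 and 1.52 CPM at 6 °C. Every pair of groups overlapped. The log2 fold changes were -0.14 at 6 °C against 30 °C (95% interval -0.86 to 0.58), -0.07 at 22 °C against 30 °C (-0.79 to 0.64) and -0.06 from 22 °C to 6 °C (-0.79 to 0.67), and none passed. These values rest on 22 to 119 counts per library.

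Asns (chromosome 6, 7675169 to 7693254) encodes asparagine synthetase, a standard readout of ATF4 activity in cultured cells. Its mean was highest at 22 °C, where that of Atf4 was lowest, though the Atf4 fall to 22 °C was lost in many alternatives. Both means were higher at 6 °C than at 30 °C, without passing for Atf4. Over the 12 libraries the r of their log2 CPM was -0.49. The level of Asns was 54.7, 53.6, 49.9 and 41.7 CPM at 30 °C, 80.5, 77.9, 79.1 and 67.5 CPM at 22 °C and 58.1, 54.9, 65.4 and 58.8 CPM at 6 °C. The 22 °C mice were above all the others. Asns rose by 0.61 from 30 °C to 22 °C (SE 0.09, adjusted p = 2.4e-04), fell by 0.36 from 22 °C to 6 °C (SE 0.09, adjusted p = 0.00964), and the steps differed by -0.97 (SE 0.16, adjusted p = 0.0011). It was 1 of the 4.1% of tested genes that were higher at 22 °C than at both other temperatures. The rise from 30 °C to 6 °C, 0.25 (SE 0.09, adjusted p = 0.0362), was lost without both mice A and B (0.14, adjusted p = 0.232) or any one of 30 °C mouse A or B or 6 °C mouse 1, 3 or 4 (0.17 to 0.26, adjusted p = 0.0517 to 0.108). It changed sign, without passing, when libraries were scaled by total counts alone (-0.07, adjusted p = 0.448).

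**Figure D2:**
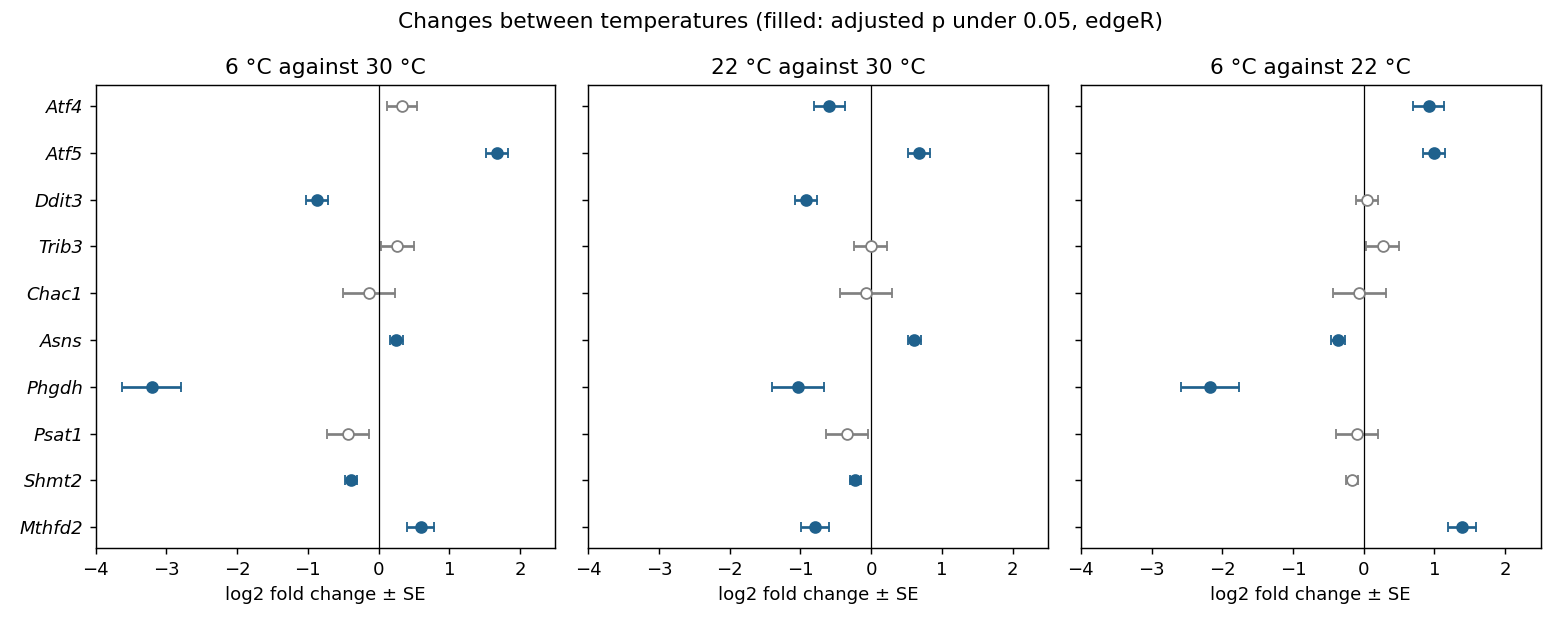
Log2 fold change ± SE (x axis) of the 10 genes (y axis) in each pair of temperatures, filled where edgeR's adjusted p was under 0.05. Phgdh lies furthest from 0 at 6 °C against 30 °C (-3.21), and Atf4, Asns and Mthfd2 lie on opposite sides of 0 in the middle and right panels.

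Phgdh (chromosome 3, 98313170 to 98339990) encodes phosphoglycerate dehydrogenase, the first enzyme of serine synthesis. It fell further than any other of the 10. Its level was 8.23, 8.60, 8.51 and 6.62 CPM at 30 °C, 2.18, 1.91, 7.85 and 3.04 CPM at 22 °C, and 0.934, 0.669, 0.920 and 0.944 CPM at 6 °C. At 22 °C, mouse 3 lay within the range of the 30 °C mice and 2.59-fold above the next mouse of its group, while the 6 °C mice were below all 8 others. Phgdh fell by 3.21 on the log2 scale from 30 °C to 6 °C (SE 0.41, 9.24-fold, adjusted p = 4.4e-05). It fell by 1.03 from 30 °C to 22 °C (SE 0.36, adjusted p = 0.0341) and by 2.17 from 22 °C to 6 °C (SE 0.41, adjusted p = 0.00197). Without 22 °C mouse 3 these steps were -1.75 (adjusted p = 6.6e-05) and -1.45 (adjusted p = 4.9e-04), and without both mice A and B the first was -1.11 (adjusted p = 0.101). The first was also lost without 30 °C mouse 1, 2 or A, or 22 °C mouse 1, 2 or 4 (-1.01 to -0.83, adjusted p = 0.0603 to 0.0848). At 6 °C Phgdh was read from 18 to 26 counts per library. GENCODE lists a processed pseudogene, Phgdh-ps1, on chromosome 7, which was not analysed here.

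Psat1 (chromosome 19, 15904678 to 15947337) encodes phosphoserine aminotransferase, the next enzyme of the route. Its level was 10.9, 9.65, 10.4 and 13.1 CPM at 30 °C, 7.32, 4.17, 15.0 and 7.79 CPM at 22 °C and 9.26, 8.96, 6.09 and 8.34 CPM at 6 °C. The 6 °C mice were all below the 30 °C mice, but the log2 fold change of -0.43 (SE 0.30, adjusted p = 0.231) did not pass, nor did -0.34 at 22 °C against 30 °C (adjusted p = 0.389) or -0.10 from 22 °C to 6 °C (adjusted p = 0.823). As with Phgdh, 22 °C mouse 3 was the highest of its group, 1.92-fold above the next. Without that mouse Psat1 fell by 0.78 from 30 °C to 22 °C (adjusted p = 0.0122). Of all tested genes, 0.834% were more than 2-fold above the other 22 °C mice in mouse 3, beside 0.101% to 1.43% in mice 1, 2 and 4.

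Psph, which encodes the phosphatase of the last step, went the other way. It stood at 18.1, 15.3, 15.6 and 13.3 CPM at 30 °C, 39.7, 41.1, 30.7 and 34.9 CPM at 22 °C and 38.5, 39.7, 41.6 and 46.3 CPM at 6 °C. It rose by 1.23 from 30 °C to 22 °C (SE 0.11, adjusted p = 1.2e-05) and by 1.42 from 30 °C to 6 °C (SE 0.11, adjusted p = 6.5e-07). Messenger RNA levels of the enzymes at the start and at the end of the same route thus changed in opposite directions at 6 °C in the whole depot. Exons of Cct6a on the other strand cover 10.4% of the Psph exons. Among the 14 other tested genes of serine and glycine metabolism, Psph included, 8 rose and 3 fell from 30 °C to 6 °C, with a median log2 fold change of 0.43, and 10 rose and 2 fell from 30 °C to 22 °C, with a median of 0.54. Of all tested genes 25.3% rose and 31.5% fell at 6 °C, and 21.8% rose and 22.8% fell at 22 °C. Glyctk and Srr, counted as rising at both temperatures, have 54.2% and 30.0% of their exons under genes of the other strand, whose reads may be counted with theirs. With total counts as the scale, 5 of the list rose and 5 fell at 6 °C and 7 rose and 3 fell at 22 °C, and without mice A and B 7 rose and 2 fell, and 8 rose and 2 fell. Sfxn1, a mitochondrial serine carrier, went from 79.9 ± 12.9 to 177 ± 13.6 and 167 ± 13.01 CPM (SD, n = 4) at 30, 22 and 6 °C, a log2 fold change of 1.15 and then 1.06 against 30 °C (adjusted p = 1.3e-05 and 4.1e-06). Gcsh, a carrier protein of the glycine cleavage system, was 91.2 ± 6.59, 127 ± 7.93 and 75.5 ± 3.04 CPM, with log2 fold changes of 0.48 at 22 °C against 30 °C and -0.75 from 22 °C to 6 °C (adjusted p = 2.0e-04 and 1.6e-05).

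Shmt2 (chromosome 10, 127517123 to 127522444) encodes the mitochondrial serine hydroxymethyltransferase. Its level declined by small amounts: 23.6, 20.7, 24.6 and 20.8 CPM at 30 °C, 20.2, 20.0, 18.1 and 18.7 CPM at 22 °C and 17.1, 17.0, 17.9 and 16.3 CPM at 6 °C, with no overlap between the groups. It fell by 0.39 from 30 °C to 6 °C (SE 0.08, adjusted p = 0.00111). The fall of 0.22 from 30 °C to 22 °C (SE 0.08, adjusted p = 0.0361) was lost in 13 of 25 alternatives, among them those that left out both mice A and B (-0.21, adjusted p = 0.12) or any one of 30 °C mouse 1 or A, 22 °C mouse 3 or 4, or 6 °C mouse 1 or 2 (-0.22 to -0.18, adjusted p = 0.0502 to 0.108). The value of -0.17 from 22 °C to 6 °C (adjusted p = 0.126) did not pass. Its cytosolic counterpart Shmt1 fell further, from 49.3 ± 6.53 to 38.5 ± 4.21 and 23.2 ± 1.72 CPM, by 1.09 from 30 °C to 6 °C (SE 0.11, adjusted p = 3.6e-06). The log2 ratio of Shmt2 to Shmt1 counts in each library does not depend on scaling. It was -1.11, -1.25, -1.20 and -0.97 at 30 °C, -1.1, -0.99, -0.87 and -1.02 at 22 °C and -0.53, -0.29, -0.42 and -0.51 at 6 °C. The ratio was higher at 6 °C than at 30 °C by 0.69 and than at 22 °C by 0.56 (exact permutation test, two-sided, n = 4 against 4, p = 0.0286 for each, the smallest this design allows, and 0.0429 after adjustment over 12 ratio tests).

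Mthfd2 (chromosome 6, 83305691 to 83325908) encodes the mitochondrial methylenetetrahydrofolate dehydrogenase and cyclohydrolase, an enzyme better known from embryonic and dividing cells. It was lowest at 22 °C and highest at 6 °C: 3.39, 4.18, 5.51 and 5.55 CPM at 30 °C, 3.41, 2.98, 2.16 and 2.33 CPM at 22 °C and 7.59, 7.02, 5.77 and 7.87 CPM at 6 °C. All 6 °C mice were above all the others, and 30 °C mouse 1 overlapped the 22 °C group. From 22 °C to 6 °C Mthfd2 rose by 1.39 (SE 0.20, 2.62-fold, adjusted p = 2.9e-04) and against 30 °C it rose by 0.60 at 6 °C (SE 0.19, adjusted p = 0.018). It fell by 0.79 from 30 °C to 22 °C (SE 0.20, adjusted p = 0.0058), which without mice A and B was -0.50 (adjusted p = 0.115). The value at 6 °C against 30 °C was 0.28 with total counts as the scale (adjusted p = 0.246) and 0.91 without mice A and B (adjusted p = 0.00684). The difference of the steps was 2.19 (SE 0.36, adjusted p = 0.0012). Mthfd2 and Atf4 were the only members among the 5.13% of tested genes that were lower at 22 °C than at both other temperatures. The summed macrophage and proliferation markers above were also lowest at 22 °C. From 30 °C to 22 °C, 9 of 10 macrophage and 13 of 13 proliferation genes fell, beside 22.8% of all tested genes. Without mice A and B, 9 and 10 fell. From 30 °C to 6 °C, 8 macrophage and 11 proliferation genes fell, beside 31.5% of all tested genes, and without mice A and B 6 and 1 fell. From 22 °C to 6 °C, 4 macrophage genes rose and 1, Cd14, fell, and 9 proliferation genes rose, beside 16.9% higher and 17.4% lower. No gene of either list had 0 counts in any library. Mice A and B, which held the higher Mthfd2 levels at 30 °C, held 1308 and 1599 CPM of summed macrophage markers beside 479 and 495 CPM in mice 1 and 2. Their summed proliferation markers were 104 CPM each, beside 62.6 and 63.7 CPM in mice 1 and 2. The part of these markers in the Mthfd2 and Atf4 results was not tested.

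Of the partner enzymes of Mthfd2, Mthfd1l was likewise lowest at 22 °C, while Mthfd2l and Mthfd1 were not. Mthfd2l, its mitochondrial relative, rose from 3.91 ± 0.350 CPM at 30 °C to 5.78 ± 0.239 CPM at 22 °C and 5.90 ± 0.582 CPM at 6 °C (log2 fold change 0.56 and 0.59 against 30 °C, adjusted p = 0.00214 and 0.00112). Mthfd1, the cytosolic enzyme, stood at 0.05 at 6 °C against 30 °C and at 0.21 at 22 °C against 30 °C (adjusted p = 0.721 and 0.128). Scaling by total counts gave -0.26 at 6 °C (adjusted p = 0.0212), and without mouse A the value at 22 °C was 0.30 (adjusted p = 0.0378). Mthfd1l, which releases formate from mitochondrial folate, was 0.745, 1.13, 2.31 and 2.33 CPM at 30 °C, 0.544, 0.179, 0.342 and 0.572 CPM at 22 °C and 1.62, 1.30, 0.991 and 1.102 CPM at 6 °C. It fell by 2.00 to 22 °C (SE 0.41, adjusted p = 0.00156) and rose by 1.62 from there to 6 °C (SE 0.42, adjusted p = 0.00989), on 3 to 77 counts per library, and like Mthfd2 it was highest in mice A and B at 30 °C. The log2 ratio of Mthfd2 to Mthfd2l was 0.22 ± 0.45 (SD, n = 4) at 30 °C, -1.1 ± 0.35 at 22 °C and 0.26 ± 0.27 at 6 °C, lower at 22 °C than at 30 °C by 1.33 and than at 6 °C by 1.36 (exact permutation test, p = 0.0286 and adjusted p = 0.0429 for each). At 6 °C against 30 °C its difference was 0.03 (exact p = 0.943). The ratio of Mthfd2 to Mthfd1 was lower at 22 °C by 0.98 against 30 °C and by 1.55 against 6 °C, with the same exact p-values. The ratio of Mthfd1l to Mthfd1 was lower there by 2.12 and 1.83, likewise.

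**Figure D3:**
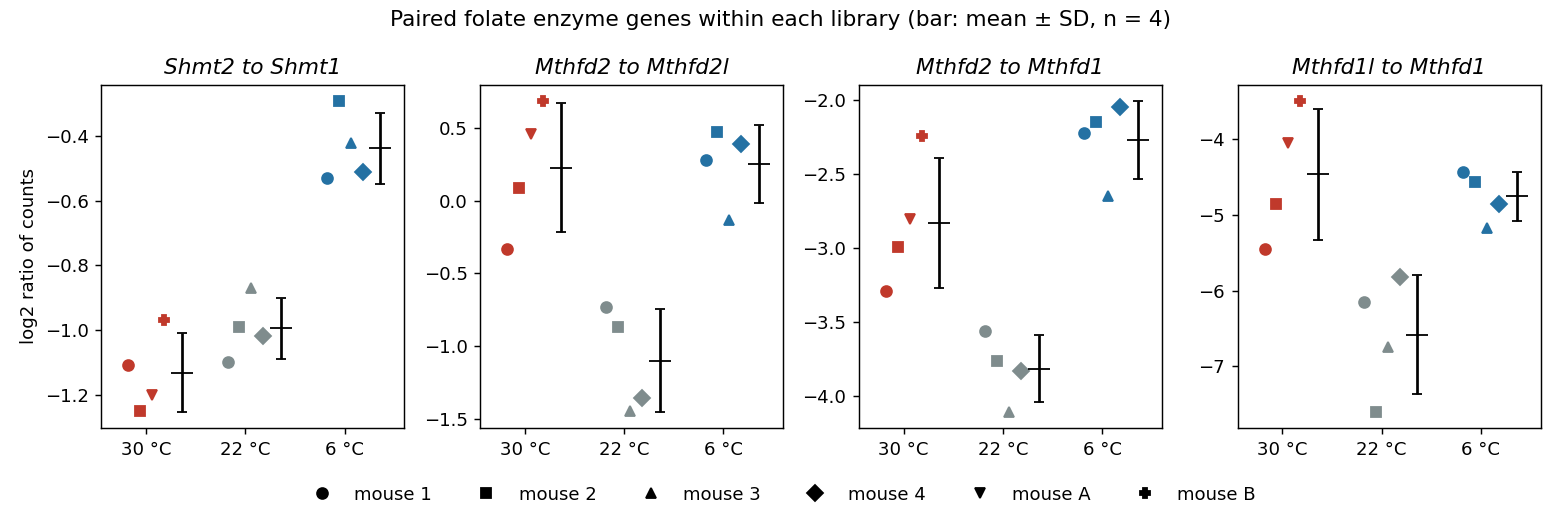
Log2 ratio of counts (y axis, scale differs by panel) of the named gene pairs in every library by temperature (x axis), with bars for the mean ± SD of 4 mice. The Shmt2 to Shmt1 ratio is highest at 6 °C (-0.53 to -0.29), and the ratios of Mthfd2 and Mthfd1l to their partners are lowest at 22 °C.

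Of 19 tested folate and one-carbon genes outside the 10, 5 rose and 5 fell from 30 °C to 6 °C, with a median log2 fold change of 0.02, and 4 rose and 5 fell from 30 °C to 22 °C, with a median of 0.03. These counts were close to the shares over all tested genes, 25.3% higher and 31.5% lower at 6 °C and 21.8% and 22.8% at 22 °C. Without mice A and B, 3 rose and 3 fell at 6 °C, and with total counts as the scale 2 rose and 10 fell. Slc25a32, the carrier that brings folate and flavin nucleotide into mitochondria, rose by 1.44 from 30 °C to 6 °C (SE 0.23, adjusted p = 3.1e-04), from 21.6 ± 4.66 to 58.5 ± 8.70 CPM. Aldh1l1, which oxidises formyl folate in the cytosol, rose by 0.83 (SE 0.16, adjusted p = 7.3e-04), while its mitochondrial relative Aldh1l2 fell by 1.39 (SE 0.26, adjusted p = 5.5e-04). Exons on the other strand cover 11.1% of Aldh1l1 and 14.1% of Aldh1l2. Mtr, methionine synthase, fell by 1.03 (SE 0.09, adjusted p = 2.0e-06), from 21.1 ± 2.29 to 10.3 ± 0.591 CPM.

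**Figure D4:**
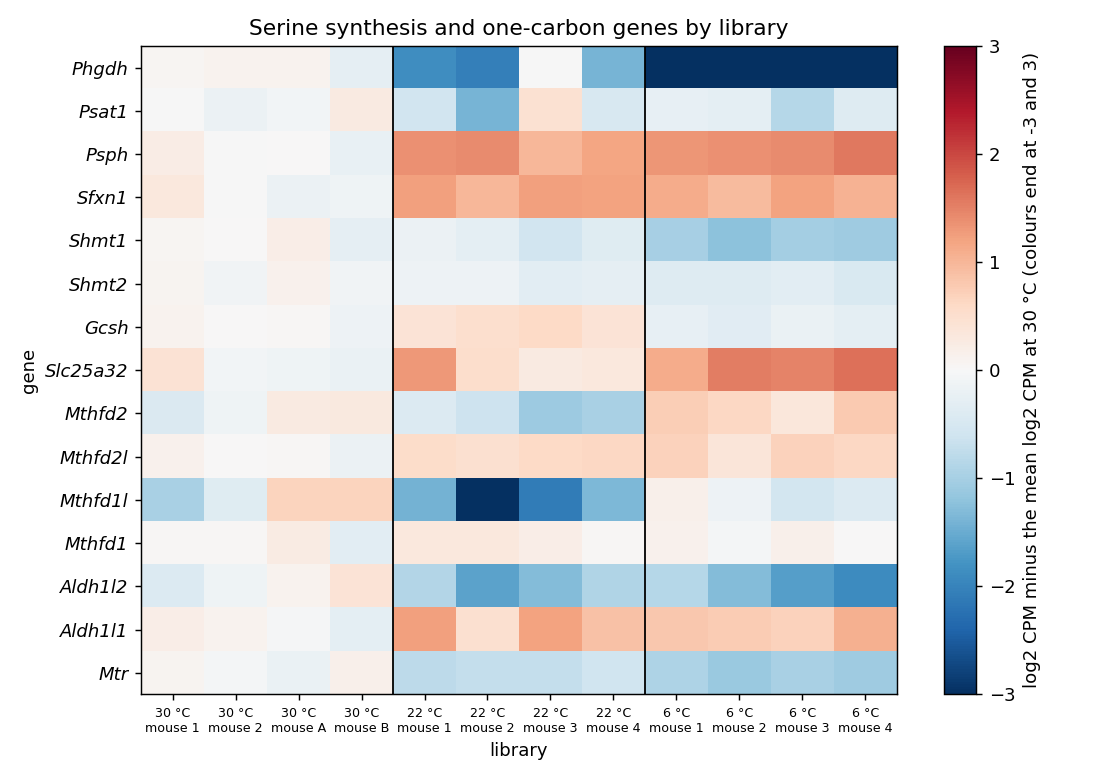
Log2 CPM of 15 serine and one-carbon genes (y axis) in the 12 libraries (x axis, grouped by temperature), as the difference from the mean at 30 °C (colour, limited to -3 to 3). Phgdh darkens to the lower end at 6 °C and Psph is raised in all cold libraries, while Phgdh and Psat1 in 22 °C mouse 3 look unlike the rest of their group.

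The 17 genes upstream of ATF4 were those of eIF2, its kinases and its exchange factor, the phosphatase subunit Ppp1r15b, the mitochondrial relay of Oma1 and Dele1, and Gcn1l1 and Impact, which act on the kinase of amino acid shortage. Of these, 10 rose from 30 °C to 6 °C, with a median log2 fold change of 0.27 over the list, and 8 rose at 22 °C, with a median of 0.23, beside 25.3% and 21.8% of all tested genes that rose. With total counts as the scale 2 rose and 2 fell at 6 °C and 1 rose and 2 fell at 22 °C, and without mice A and B 7 and 5 rose. Eif2ak1, the haem-regulated kinase that also relays mitochondrial stress, rose at every step, from 36.9 ± 2.20 to 48.6 ± 3.30 and 59.5 ± 2.12 CPM (SD, n = 4; 0.69 at 6 °C against 30 °C, SE 0.07, adjusted p = 3.7e-06), the first step being lost with total counts as the scale (0.14, adjusted p = 0.0977), with 11.6% of its exons under genes of the other strand. Eif2ak3, the kinase of the endoplasmic reticulum, rose from 22 °C to 6 °C by 0.36 (adjusted p = 0.013) and stood at 0.20 against 30 °C (adjusted p = 0.0971; without 22 °C mouse 3 0.0485). Eif2ak2 and Eif2ak4, the kinases of double-stranded RNA and amino acid shortage, stood at -0.22 and 0.19 at 6 °C against 30 °C (adjusted p = 0.151 and 0.0563), and passed at -0.32 without 6 °C mouse 1 (adjusted p = 0.0426) and at 0.22 without 30 °C mouse A (adjusted p = 0.039) or 0.29 without both mice A and B (adjusted p = 0.0236). The regulatory phosphatase subunits Ppp1r15a, counted among the ATF4-linked genes below, and Ppp1r15b stood at -0.51 and 0.35 (adjusted p = 0.274 and 0.17), the first at -0.78 without 30 °C mouse A (adjusted p = 0.0417). The exchange factor subunits Eif2b5 and Eif2b1 rose by 0.37 and 0.27 (adjusted p = 3.5e-04 and 0.0144), the second lost without mice A and B (0.23, adjusted p = 0.0749).

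Among 27 other genes linked to ATF4, 8 rose and 8 fell from 30 °C to 6 °C (median log2 fold change -0.29), 5 rose and 7 fell from 30 °C to 22 °C (median -0.32), and 9 rose and 7 fell from 22 °C to 6 °C (median 0.25). The shares over all tested genes were near these at 6 °C against 30 °C (25.3% and 31.5%), and were 21.8% and 22.8% at 22 °C and 16.9% and 17.4% at the second step. With total counts as the scale these counts were 4 and 11, 2 and 12, and 9 and 7. Cebpg, a binding partner of ATF4, followed the course of Atf5: 81.0 ± 5.26, 99.9 ± 8.32 and 154 ± 15.9 CPM at 30, 22 and 6 °C, with 0.93 at 6 °C against 30 °C (SE 0.09, adjusted p = 2.8e-06) and a first step of 0.30 (adjusted p = 0.0133) that was 0.04 with total counts as the scale (adjusted p = 0.672). Eif4ebp1, a brake on cap-dependent translation, had the course of Asns: 107 ± 12.04, 210 ± 16.2 and 127 ± 5.80 CPM, with 0.98 to 22 °C and -0.72 from there to 6 °C (adjusted p = 1.0e-05 and 8.6e-05). Nupr1, a small stress-induced chromatin protein, was 37.1 ± 4.83, 40.7 ± 2.54 and 14.2 ± 2.28 CPM and fell by 1.52 from 22 °C to 6 °C (SE 0.12, adjusted p = 5.8e-06).

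Atf3, which encodes a further stress-induced factor, was 27.9, 23.8, 17.9 and 33.6 CPM at 30 °C, 4.45, 3.34, 7.45 and 5.76 CPM at 22 °C and 36.6, 15.9, 41.8 and 14.5 CPM at 6 °C. All 22 °C mice were below all the others. Atf3 fell by 2.26 to 22 °C (SE 0.39, adjusted p = 9.8e-04) and rose by 2.33 from there to 6 °C (SE 0.40, adjusted p = 0.00146). The difference at 6 °C against 30 °C was 0.08 (SE 0.37, adjusted p = 0.869). The following were chosen after their values were seen. Gdf15, a stress hormone, held 36 to 148 counts per library at 30 °C, 2 to 10 at 22 °C and 40 to 147 at 6 °C, and fell and rose again at the same steps (adjusted p = 4.7e-04 and 5.6e-04). Slc7a5 and Slc7a11, carriers of large neutral amino acids and of cystine, also fell to 22 °C (log2 fold change -1.67 and -2.49, adjusted p = 0.00129 and 0.00158) and rose from there to 6 °C (1.18 and 1.85, adjusted p = 0.0166 and 0.0175). Slc7a11 was read from 0 to 39 counts per library, and its second step was 1.56 without 6 °C mouse 1 (adjusted p = 0.0569). Fgf21, a hormone released by stressed and cold-exposed fat, was 0.0899 to 0.322 CPM at 30 °C, 0.0825 to 0.198 CPM at 22 °C and 0.682 to 2.23 CPM at 6 °C, a rise of 3.03 against 30 °C (SE 0.43, adjusted p = 6.9e-05) on 3 to 63 counts. Pycr1 and Aldh18a1, of proline synthesis, fell from 30 °C to 6 °C (log2 fold change -1.35 and -0.84, adjusted p = 0.00286 and 0.00136), the first lost without mice A and B (-0.81, adjusted p = 0.0735). Summed macrophage and proliferation markers were lowest at 22 °C beside Atf3, Gdf15 and the carriers too, and their part was not tested.

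**Figure D5:**
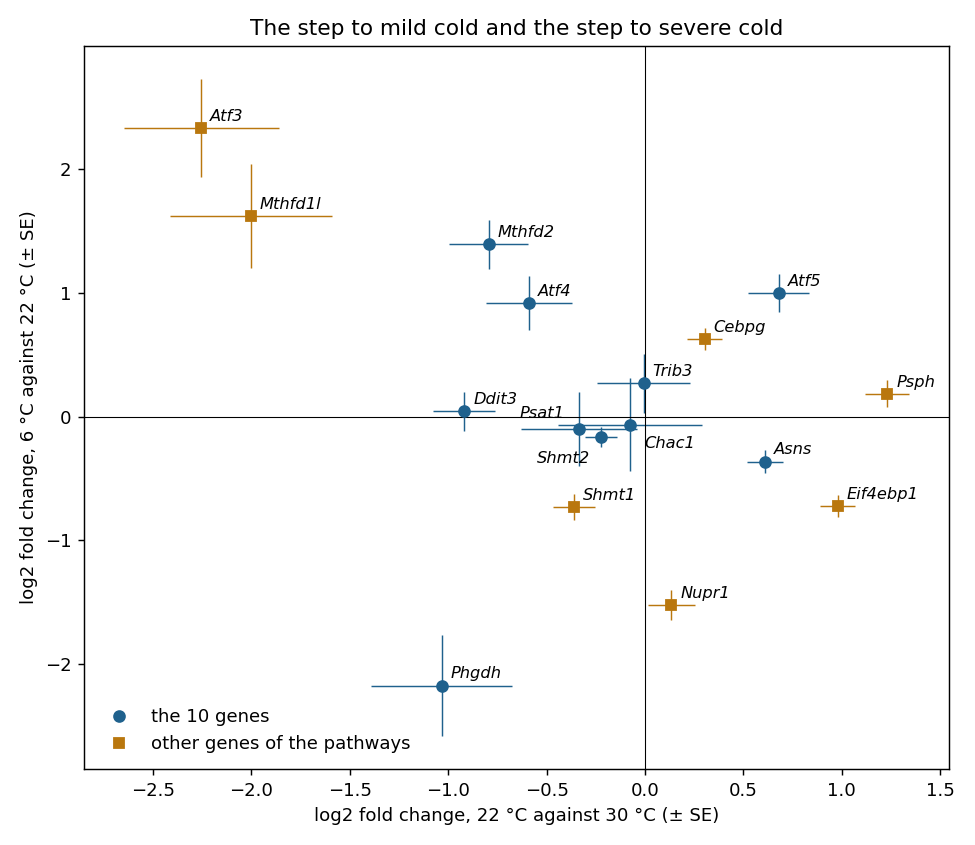
Log2 fold change ± SE from 30 °C to 22 °C (x axis) and from 22 °C to 6 °C (y axis) of the 10 genes (circles) and 7 other genes of these pathways (squares). Atf3, Mthfd1l, Mthfd2 and Atf4 lie at the upper left, Asns, Eif4ebp1 and Nupr1 at the lower right, Atf5 and Cebpg at the upper right; the axes share the 22 °C mice, so the slope of the cloud is not a result.

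Genes listed as mitochondrial chaperones and proteases, most of which refold or degrade proteins there, were mostly higher in the cold than at 30 °C. Of the 14 listed genes, 11 rose from 30 °C to 6 °C and 13 from 30 °C to 22 °C, with medians of 0.68 and 0.56, beside 25.3% and 21.8% of all tested genes that rose. The list includes Lrpprc, which encodes an RNA-binding protein rather than a chaperone or protease, and which rose in both comparisons. From 22 °C to 6 °C, where Atf5 rose by 1.00, 3 rose (Hspa9, Lonp1 and Dnaja3) and 2 fell (Hspe1 and Trap1), with a median of 0.08, beside 16.9% and 17.4% of all tested genes. With total counts as the scale 10 rose and 2 fell at 6 °C, and 10 rose at 22 °C. Hspa9, the matrix HSP70, went from 725 ± 93.4 to 1202 ± 44.9 and 1679 ± 98.2 CPM (SD, n = 4; log2 fold change 1.21, SE 0.10, adjusted p = 6.8e-07 at 6 °C against 30 °C). Lonp1, the matrix protease, rose by 1.03 (SE 0.07, adjusted p = 2.1e-07) and Dnaja3, a cochaperone, by 1.16 (SE 0.10, adjusted p = 8.4e-07). In glutathione turnover, the pathway of Chac1, 2 of 8 tested genes rose and 2 fell at 6 °C against 30 °C, with a median of 0.06, about the shares over all tested genes (25.3% and 31.5%). Gclm, the regulatory subunit for glutathione synthesis, rose by 1.18 (SE 0.08, adjusted p = 2.0e-07), Oplah, 5-oxoprolinase, rose by 0.99 (SE 0.08, adjusted p = 5.9e-07), and Ggt5, which cleaves extracellular glutathione conjugates, fell by 1.49 (SE 0.21, adjusted p = 6.8e-05). Of 15 tested relatives of ATF4, ATF5, DDIT3 and TRIB3, 5 rose and 6 fell, with a median of -0.17, where 25.3% and 31.5% of all tested genes did. Without mice A and B 2 rose and 5 fell, and with total counts as the scale 9 fell. Atf6, a sensor of endoplasmic reticulum stress, rose by 0.27 (adjusted p = 0.00342; with total counts -0.05), while Batf3 and Cebpd fell (log2 fold change -2.22 and -0.80, adjusted p = 8.9e-05 and 0.00331), Batf3 from a level of 1.86 ± 0.669 CPM.

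The genes whose log2 CPM over the 12 libraries was most like that of a member, among 9886 genes averaging 5 CPM or more, were named by Pearson correlation as a description only. The 12 libraries share the temperature groups, so r was also taken after centring on group means. Atf5 was nearest to Gpd1 (r = 0.992, centred 0.95), Pfkl (0.991, 0.91) and Ankrd40 (0.988, 0.87). Phgdh was nearest to Heph (0.978, 0.86), Cdsn (0.972, 0.80) and Esyt1 (0.968, 0.71). Mthfd2 was near to Lgals9 (0.959, 0.74) and Cln8 (0.956, 0.79). Asns was nearest to Ces1d, Rtn4 and Ndufs3 (0.955, 0.955 and 0.954, centred 0.76, 0.72 and 0.71). Ddit3 was nearest to Ehd3, Ctnnbip1 and St5 (0.951, 0.947 and 0.937, centred 0.74, 0.75 and 0.65). Atf4 was nearest to Abcc9, Slc20a1 and Plk3 (0.940, 0.914 and 0.914, centred 0.85, 0.78 and 0.79), and Shmt2 to Vamp4, Pias3 and Rbmx (0.937, 0.936 and 0.931, centred 0.67, 0.65 and 0.72). Of the genes that no comparison called, Trib3 was nearest to Vegfa, U2surp and Nup37 (0.951, 0.867 and 0.865, centred 0.96, 0.92 and 0.86). Psat1 was nearest to Serpina3n, Chst1 and Ccnd2 (0.894, 0.887 and 0.872, centred 0.94, 0.92 and 0.88), and Chac1 to Lzts2, Ufl1 and Pcm1 (0.798, 0.792 and 0.735, centred 0.83, 0.85 and 0.88).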

How the data were processed

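RNA of interscapular brown fat from 12 mice was sequenced, with 1 library per mouse. The authors deposited 1 table of raw counts per Ensembl gene, without normalisation. The submitters' processing notes list FastQC 0.10.1, STAR 2.4.2a, edgeR 3.14.0, GRCm38 and mm10, and say nothing of which did what. Counting program, annotation release and strandedness were not given in the labels. Names, positions and exon lengths came from GENCODE (GRCm38), which matched 96.6% of identifiers, and promoters from RefSeq. Counts were scaled by TMM, filtered by filterByExpr and fitted with a robust glmQLFit to all 12 libraries (edgeR 4.0.16, R 4.3.3), in a script tested on simulated data. SE is the log2 fold change over the square root of F, and a 95% interval is 1.96 SE to each side. Ratios used counts plus 0.5. P-values measure the spread between these mice only, as the labels do not describe litters or cages. No library was a copy of another in its group (lowest chi-square over degrees of freedom 20.9). In the smallest library 1 CPM is 18.3 counts. Alternatives were other scalings and filters, DESeq2 1.42.0, limma 3.58.1 voom, the mouse number as a block, libraries left out and a stricter threshold. The members and lists were chosen with earlier results of these data known. All 10 members are named, with the 3 genes of smallest p over any temperature in each of 7 lists, 14 partner genes and the 3 nearest genes per member, of which 1 is not reported here.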

Additional observations from a re-analysis of the deposited data

Results flagged for a closer look

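For 4 of the 10 genes the step from 22 °C to 6 °C differed from the step from 30 °C to 22 °C by edgeR's quasi-likelihood test of that difference (adjusted p under 0.05; 29.3% of all tested genes, 14.3% higher and 15% lower). The difference, on the log2 scale, was 1.51 for Atf4 (adjusted p = 0.013), 0.96 for Ddit3 (adjusted p = 0.021), -0.97 for Asns (adjusted p = 0.0011) and 2.19 for Mthfd2 (adjusted p = 0.0012). Among 42 sets of 4 mice examined, with the 10 genes and the ratios, 3 held a mouse far from the others by Dixon's test, a number that chance alone can give, since it flags about 1 set in 20. At 30 °C, mouse B was lowest for Trib3 at 5.86 CPM and lowest for Phgdh at 6.62 CPM. At 6 °C, mouse 2 was lowest for Phgdh at 0.669 CPM, on 20 counts.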

How the results depend on the processing

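Of the member values under alternative settings, 931 kept their side of the threshold, 56 lost the call, 2 gained it, and 1 lost it and changed sign. The 931 include values without a call that changed sign. Among these, the Phgdh difference of the steps was -1.14 and reached 0.30, and Psat1 from 22 °C to 6 °C was -0.10 and reached 0.35. Scaling by total counts moved the median of all genes by -0.32 at 6 °C and -0.26 at 22 °C against 30 °C; there Asns stood at -0.067, Eif4ebp1 at -0.056, Eif2b1 at -0.050, Atf6 at -0.049 and Mthfd1 at -0.26 (6 °C), Eif2b5 at -0.012 (22 °C), 1 member rose at 6 °C, and 1939 genes rose and 7888 fell at 6 °C, 1419 and 6224 at 22 °C. For 22 °C against 30 °C, members that fell numbered 3 with RLE scaling, 2 with no filter, 3 with only the groups compared, and 2 at an adjusted p under 0.01, where 1 member rose at 6 °C, 2 members and 2236 genes differed between steps, and 1409 genes rose and 1394 fell from 22 °C to 6 °C. Without mice A and B, 1 member rose and 1 fell at 22 °C, 2151 genes rose there, and the Mthfd1l to Mthfd1 ratio at 6 °C against 30 °C was 0.40. Leaving out single libraries gave 3 to 5 members that fell at 22 °C. The mouse numbers did not pair the libraries: 3 of 8 same-numbered pairs correlated above 0.1 (range -0.15 to 0.23) and 1 of 10 libraries was nearest to its own number. With the number as a replicate block, over 10 libraries, 1 member rose and 2 fell at 22 °C against 30 °C, 1624 genes rose and 1621 fell there, 2871 fell at 6 °C against 30 °C, and 2468 differed between steps. The cause of these shifts was not tested. Low counts limit Chac1, Phgdh at 6 °C and Gdf15 at 22 °C.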
